A study of Rattus norvegicus with 5 samples.

Results

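Vegfa, Nos3, Hif1a and Hmox1, which stand for nitric oxide production, the response to low oxygen and the growth of blood vessels, were followed across 5 libraries of rat heart RNA. They were chosen by name, not by their values, and are 4 of 20646 genes in the expression table, found under ENSRNOG00000019598 (Vegfa), ENSRNOG00000009348 (Nos3), ENSRNOG00000008292 (Hif1a) and ENSRNOG00000014117 (Hmox1). The libraries came from male SD rats listed as 7 to 8 weeks old, and each group had 1 library. Normal hearts had no infarction. The other 4 groups had a myocardial infarction made by ligation of the left anterior descending artery, and were left untreated (MI), injected in the infarcted area with the nitric oxide donor SNAP (SNAP), sewn over the infarct with DTMS, a hollow conductive hydrogel suture (DTMS), or given SNAP through that suture (S-DTMS). The methods also describe saline through the suture, for a group whose name is not among the labels. They place the sampling of left ventricular wall a week after treatment, whereas the labels give a month, and neither says whether the RNA of several rats was pooled. The paper's legend for these data speaks of biologically independent replicates, whereas the table analysed here holds a single column per group, so that a value may stand for a rat, a pool of rats or a single replicate.

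Nitric oxide is made in the vessel wall by endothelial nitric oxide synthase, the product of Nos3, and a donor such as SNAP releases it without the enzyme. Hif1a encodes the oxygen-sensitive subunit of the transcription factor HIF-1, which is held in check mainly by breakdown of the protein when oxygen is plentiful. Vegfa encodes the vascular endothelial growth factor that drives sprouting of capillaries, and is a classic HIF-1 target. Hmox1 encodes haem oxygenase 1, which splits haem into biliverdin, iron and carbon monoxide and is induced by haem, oxidants and low oxygen.

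The 250 bases before the annotated start of a gene are where HIF-1 and other factors may meet the general transcription machinery, so the windows of these genes are shown for the hypoxia response core (ACGTG or GCGTG) and the antioxidant response element (TGACNNNGC), both strands searched. RefSeq sequences (GRCr8) matched 3 of the 4 genes, namely Vegfa, Nos3 and Hif1a. Matches are in capitals, and each sequence runs 5′ to 3′ on the strand of its gene.
Hif1a: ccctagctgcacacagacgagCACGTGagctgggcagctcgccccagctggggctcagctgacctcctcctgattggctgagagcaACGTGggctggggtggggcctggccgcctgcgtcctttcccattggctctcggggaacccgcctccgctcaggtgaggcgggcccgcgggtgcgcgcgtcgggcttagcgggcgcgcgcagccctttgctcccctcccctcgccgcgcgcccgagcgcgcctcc
Vegfa: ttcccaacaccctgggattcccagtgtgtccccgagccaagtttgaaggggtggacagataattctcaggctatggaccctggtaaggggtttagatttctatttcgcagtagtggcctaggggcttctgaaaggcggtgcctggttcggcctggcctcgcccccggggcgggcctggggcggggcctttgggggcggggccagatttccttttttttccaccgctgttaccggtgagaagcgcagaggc
Nos3: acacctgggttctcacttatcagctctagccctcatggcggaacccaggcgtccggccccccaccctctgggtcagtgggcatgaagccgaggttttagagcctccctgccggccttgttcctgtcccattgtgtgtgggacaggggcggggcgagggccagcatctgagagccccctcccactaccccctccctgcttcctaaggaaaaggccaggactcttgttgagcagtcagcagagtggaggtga
They lie at chr6:98359648-98359897 on the plus strand (Hif1a), chr9:22452604-22452853 on the plus strand (Vegfa, the first of its 2 annotated starts) and chr4:11706582-11706831 on the minus strand (Nos3). Hif1a held ACGTG at -228 and -164 from its start, and at the first of these places the letters also read as ACGTG on the other strand, from -229. The Vegfa and Nos3 windows held neither motif, and the same was true of the second Vegfa start. Bases outside these windows were not searched, so a gene may hold either motif elsewhere. Of 33469 promoter windows of this length, 36.7% held ACGTG or GCGTG, 16.6% held ACGTG and 10.1% held the antioxidant element, so a match is common, and it describes the letters only. The share of G and C was 73.6% in Hif1a, 60.4% in Vegfa and 62.4% in Nos3, against a median of 51.2%.

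Values are FPKM, the fragments of a gene per kilobase of its length, scaled to the fragment total of the library. The low values showed what 1 fragment was worth, which gave totals of 16731024 to 17379225 fragments per library and the fragments behind each value. Intervals are 95% intervals for counting error only, and differences between libraries have no replicate check, so no p-value was computed. A change is a difference of log2(FPKM + 1), and a gene was called changed at 1 or more in either direction, over the 13769 genes that reached an FPKM of 1 in any library. Over all genes, S-DTMS stood apart from the other infarcted libraries. Its values differed from those of MI, DTMS and SNAP at 1834 to 2000 genes, whereas MI against Normal, SNAP against MI and DTMS against MI gave 640 to 958. S-DTMS was not compared with Normal in this way. The 10 most abundant genes of S-DTMS held 13.5% of its fragments, against 16.9% in Normal and 21.5% to 23.2% in MI, SNAP and DTMS. All genes together were also shifted, with medians of 0.31 in S-DTMS against SNAP, 0.25 when S-DTMS was set against DTMS, 0.15 when it was set against MI, -0.06 in DTMS against MI, -0.14 in SNAP against MI and -0.12 in MI against Normal. Each change is therefore also given when the libraries are scaled by the median of ratios, a step that removes such a shift, where this crosses the limit or turns the direction. In heart wall RNA, fewer cells of a type and less RNA per cell cannot be told apart, and markers of endothelial, muscle and inflammatory cells were not analysed here.

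**Figure D1:**
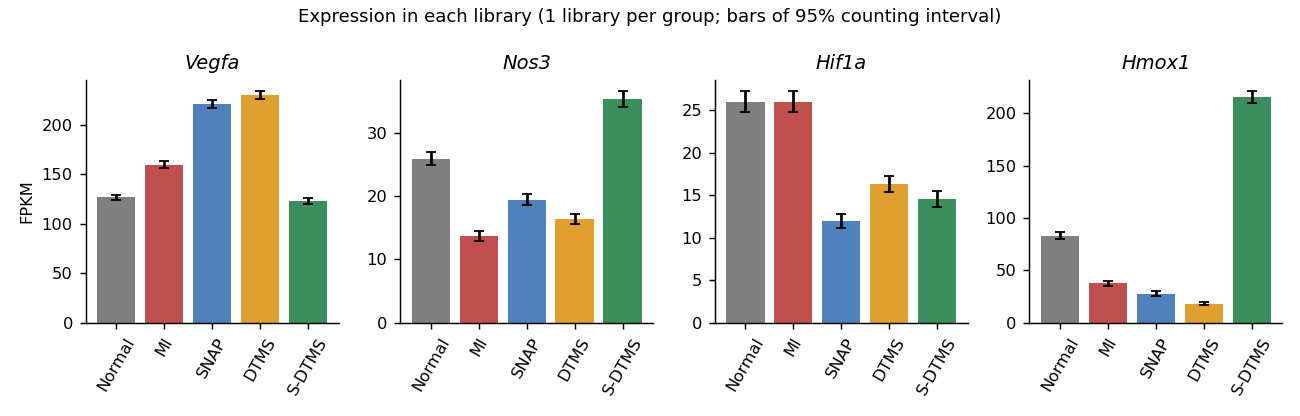
FPKM of Vegfa, Nos3, Hif1a and Hmox1 in the Normal, MI, SNAP, DTMS and S-DTMS libraries, 1 library per group, each panel with its own axis from 0 and error lines of the 95% counting interval. Hmox1 reaches 216 in S-DTMS against 18.1 to 83.3 elsewhere, whereas Vegfa is at its lowest there (123) and Hif1a sits at 11.9 to 16.3 in the 3 treated libraries against 26.0 in Normal and MI.

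Vegfa, the ligand of the group, was the most abundant of the 4 genes per length in every library but S-DTMS. Its FPKM was 126 in Normal (7676 fragments), 159.6 in MI (9498), 221 in SNAP (13593), 229.6 in DTMS (13624) and 123 in S-DTMS (7409). SNAP and DTMS were thus the high libraries and S-DTMS and Normal the low ones, with MI between. The counting intervals of Normal (124 to 129) and S-DTMS (120 to 125) overlapped, and the order of SNAP and DTMS turned round after scaling by the median of ratios, so neither pair has a settled order. Between 2.27% and 4.47% of the genes tested lay above Vegfa in a library, with the lowest share in DTMS.

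The injection of SNAP and the suture without SNAP went with similar Vegfa levels. Against MI, SNAP was 1.38 times as high (1.35 to 1.42) and DTMS 1.44 times (1.40 to 1.48), log2 changes of 0.46 and 0.52 that stayed under the limit. S-DTMS was given SNAP through the suture, not by injection. Its Vegfa was 0.769 times MI (0.745 to 0.792), 0.556 times SNAP (0.540 to 0.572) and 0.534 times DTMS (0.519 to 0.549). On the log2 scale these last values were -0.38, -0.84 and -0.90, again under the limit, but after scaling by the median of ratios Vegfa passed it against SNAP (-1.20) and DTMS (-1.18). MI was 1.26 times Normal (1.22 to 1.30). The sign of the SNAP difference in Vegfa therefore changed with the suture, from 0.46 without it to -0.90 with it. Of all genes, 9.40% were likewise higher in SNAP than in MI while DTMS exceeded S-DTMS, on the deposited scale.

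Hif1a, the transcription factor subunit, was the gene in which the libraries with SNAP did not overlap the libraries without it. Its FPKM was 26.0 in both Normal (1772 fragments) and MI (1736), 11.9 in SNAP (825), 16.3 in DTMS (1087) and 14.5 in S-DTMS (986). SNAP and S-DTMS thus lay below Normal, MI and DTMS on the deposited scale, after the median of ratios and as TPM, with DTMS nearest to them. The counting intervals of DTMS (15.3 to 17.3) and S-DTMS (13.6 to 15.5) overlapped, so the gap between the 2 sets is narrow. Both libraries with SNAP lay below the other 3 at 12.6% of all genes and above them at 6.57%, and 1 of 4 members was apart in either direction against 19.2% of all genes. SNAP was itself the lowest library as deposited, so leaving out S-DTMS could not change this, and SNAP alone lay below Normal, MI and DTMS at 43.4% of all genes. The order within the pair depended on the scale, since S-DTMS was the lowest library after the median of ratios.

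Hif1a did not differ between MI and Normal within counting error, with a ratio of 0.999 (0.935 to 1.07), although the median of ratios put MI higher by 0.13. The fall from MI to SNAP was the only call for this gene, to 0.459 times (0.422 to 0.499), a log2 change of -1.06 that became -0.89 and missed the limit after the median of ratios. It was 1 of 4 members called in SNAP against MI, where 6.33% of all genes were called. DTMS was 0.628 times MI (0.582 to 0.678) and S-DTMS 0.560 times MI (0.517 to 0.605), log2 changes of -0.64 and -0.80. With the suture in both libraries, S-DTMS was 0.891 times DTMS (0.816 to 0.972), a log2 change of -0.16 that was -0.42 after the median of ratios. With SNAP in both, S-DTMS was 1.22 times SNAP (1.11 to 1.34), a log2 change of 0.27 that turned to -0.07 on that scale. Hence the 3 treated libraries lay below MI, and the distance between the libraries with and without SNAP was larger without the suture. All 3 treated libraries are set against the same MI library.

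Nos3, the synthase gene, was lowest in the untreated infarct and highest in S-DTMS. Its FPKM was 25.8 in Normal (2380 fragments), 13.6 in MI (1231), 19.4 in SNAP (1814), 16.3 in DTMS (1471) and 35.3 in S-DTMS (3235). No neighbours in this order had overlapping counting intervals, and the order was the same after the median of ratios and as TPM. Among infarcted hearts, both libraries with SNAP lay above both without it, as at 15.0% of all genes (17.7% lay below), but Normal lay between SNAP and S-DTMS.

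MI held 0.527 times the Nos3 of Normal (0.492 to 0.565), a log2 change of -0.88 that stayed under the limit. SNAP was 1.42 times MI (1.32 to 1.53) and DTMS 1.20 times MI (1.11 to 1.29), log2 changes of 0.48 and 0.25. S-DTMS rose to 2.59 times MI (2.42 to 2.77), a log2 change of 1.31 that was 1.14 after the median of ratios. S-DTMS against DTMS was also called, at 2.16 times (2.03 to 2.30) and a log2 change of 1.07, but this became 0.79 after the median of ratios. Against SNAP it was 1.82 times as high (1.72 to 1.93), with a log2 change of 0.83. S-DTMS was the highest of the 5 libraries for 43.1% of all genes as deposited and 31.4% after the median of ratios, so the top place of S-DTMS is shared by many genes. How much endothelium each piece of tissue held was not tested.

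Hmox1, the haem-degrading enzyme, varied most of the 4 genes, with 11.9 times between its highest and lowest library against 1.87 for Vegfa, 2.18 for Hif1a and 2.59 for Nos3. A wider range was seen in 6.44% of all genes. Its FPKM was 83.3 in Normal (2233 fragments), 37.5 in MI (986), 27.8 in SNAP (756), 18.1 in DTMS (473) and 216 in S-DTMS (5751). The other infarcted libraries all lay below Normal, whereas S-DTMS lay far above it, and no neighbours in the order had overlapping intervals. The order held under the median of ratios and TPM.

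Hmox1 was called in 5 of the 6 comparisons, in which 4.65% to 14.5% of all genes were called. These comparisons share libraries, so the calls are not independent. Hmox1 fell from Normal to MI, to 0.450 times (0.417 to 0.486) with a log2 change of -1.13. It also fell from MI to DTMS, to 0.481 times (0.430 to 0.538) with -1.02. Both lay close to the limit, and became -0.99 and -0.91 after the median of ratios. SNAP was 0.741 times MI (0.673 to 0.815), a log2 change of -0.42 that was not called. S-DTMS rose to 5.75 times MI (5.37 to 6.15), 7.76 times SNAP (7.19 to 8.38) and 11.9 times DTMS (10.9 to 13.1), with log2 changes of 2.49, 2.91 and 3.51. These stayed at 2.32, 2.56 and 3.23 after the median of ratios. Larger rises were seen at 91, 24 and 16 of 13769 genes, in this order. S-DTMS also held 2.59 times the Normal level.

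Libraries with and without SNAP can be set side by side in hearts without the suture and in hearts with it. SNAP was injected where there was no suture and given through it where there was one. Suture and route of delivery therefore cannot be told apart. Without the suture, the pair SNAP against MI called Hif1a alone, 1 of 4 members against 6.33% of all genes. With it, S-DTMS against DTMS called Nos3 and Hmox1, 2 of 4 members against 14.1% of all genes. After the median of ratios the calls of Hif1a (-0.89) and Nos3 (0.79) were lost. On that scale Vegfa was called with the suture (-1.18). Averaged over hearts without and with the suture, the log2 difference between libraries with and without SNAP was 1.54 for Hmox1, 0.77 for Nos3, -0.61 for Hif1a and -0.22 for Vegfa, where the median over all genes was 0.04. These averages hide opposite signs in Hmox1 (-0.42 and 3.51) and Vegfa (0.46 and -0.90), while both parts had the same sign in Nos3 (0.48 and 1.07) and in Hif1a (-1.06 and -0.16). The difference with the suture minus that without it was 3.93 for Hmox1 (3.73 to 4.12, counting error only), and 20 of 13769 genes had a larger one in size. It was -1.36 for Vegfa (-1.42 to -1.31), 0.90 for Hif1a (0.73 to 1.08) and 0.59 for Nos3 (0.45 to 0.72), beside a median of 0.40 over all genes. A difference larger in size was seen at 10.3% of all genes for Vegfa, 26.1% for Hif1a and 47.4% for Nos3. Without the S-DTMS library only SNAP against MI is left, so the positive average of Hmox1 rests on that library.

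**Figure D2:**
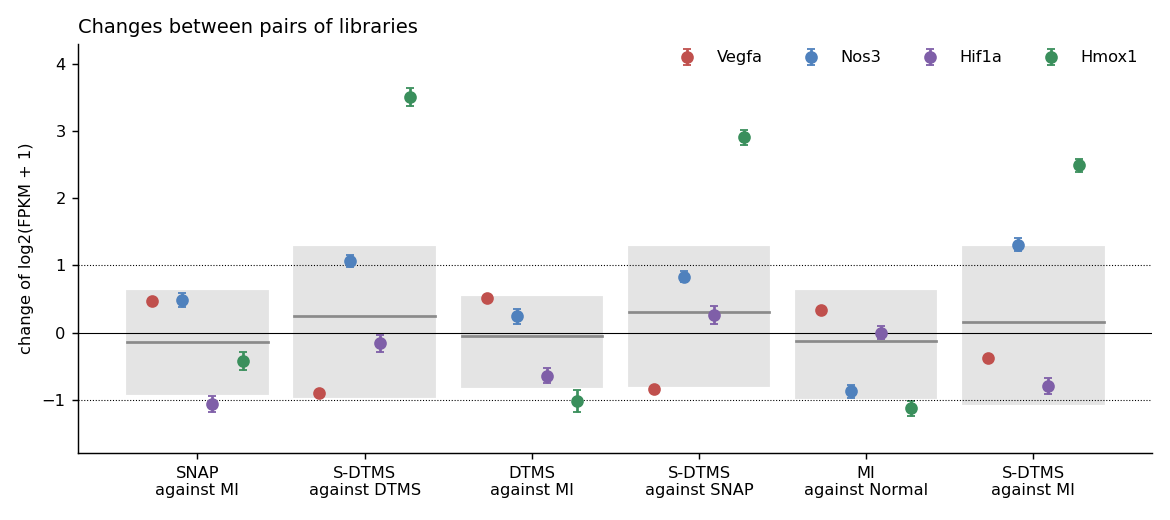
Change of log2(FPKM + 1) of the 4 genes (points, with 95% counting intervals taken from the ratio of fragments) in 6 pairs of libraries. Grey boxes hold the middle 90% of all genes with a grey line at their median, and dotted lines mark the limit of 1. Hmox1 leaves the box upwards in the 3 comparisons with S-DTMS as the first library (2.49 to 3.51), while Vegfa lies on the low side of 0 in the same comparisons (-0.90 to -0.38).

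The suture without SNAP (DTMS against MI) called 1 of 4 members, Hmox1, where 4.65% of all genes were called. With SNAP in both libraries (S-DTMS against SNAP), Hmox1 was again the 1 member called against 13.3% of all genes, now in the other direction. S-DTMS against MI called Nos3 and Hmox1, 2 of 4 against 14.5%. MI against Normal called Hmox1 alone, against 6.96%. After the median of ratios the Hmox1 calls in DTMS against MI (-0.91) and MI against Normal (-0.99) were lost. On that scale Vegfa was also called in S-DTMS against SNAP (-1.20). DTMS and SNAP share the MI library as their reference, as S-DTMS against SNAP and against DTMS share the S-DTMS library, so their values are not independent.

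Ratios of 2 genes within a library do not depend on how libraries were scaled. Vegfa exceeded Hmox1 per length by 1.52 times in Normal (1.45 to 1.59), 4.25 times in MI, 7.94 times in SNAP and 12.7 times in DTMS, but was 0.569 times Hmox1 in S-DTMS (0.550 to 0.589). The treated hearts other than S-DTMS therefore lay farther from Normal than MI did in this ratio, and S-DTMS lay on the other side of Normal. Vegfa over Hif1a was 4.87 in Normal, 6.15 in MI, 8.44 in S-DTMS, 14.1 in DTMS and 18.5 in SNAP. Nos3 over Hif1a was 0.525 in MI, 0.994 in Normal, 1.00 in DTMS, 1.63 in SNAP (1.498 to 1.77) and 2.43 in S-DTMS (2.26 to 2.61). Of the 6 ratios among the 4 genes, this was the 1 in which the libraries with SNAP did not overlap those without it, and it was picked out after its values were seen.

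**Figure D3:**
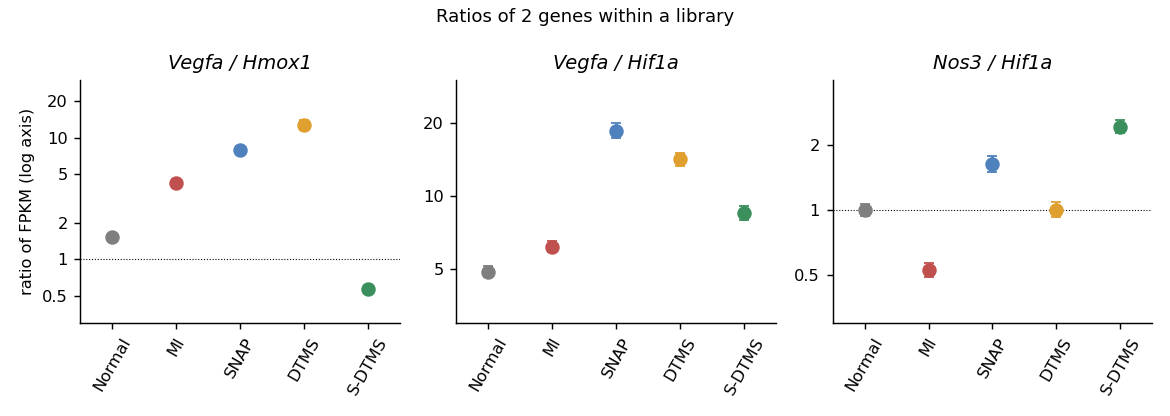
Ratio of FPKM of 2 genes within each library, on log axes, with 95% counting intervals (most are smaller than the points) and a dotted line at 1. Vegfa over Hmox1 runs from 0.569 in S-DTMS to 12.7 in DTMS, and Nos3 over Hif1a is higher in SNAP (1.63) and S-DTMS (2.43) than in the other 3 libraries (0.525 to 1.00).

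The pattern of each gene over the 5 libraries was compared with all others by Pearson's r of log2(FPKM + 1). An r of at least 0.95 was reached by 873 genes for Hmox1, 485 for Nos3, 201 for Hif1a and 47 for Vegfa, of 13768 each. With 5 libraries such values come easily, and they are a description. The 2 closest patterns over all 4 members were those of ENSRNOG00000015396 (r of 0.9999) and ENSRNOG00000006513 (r of 0.9996), both to Nos3. The first ran from 47.4 FPKM in MI up to 67.6 in S-DTMS, and the second from 4.63 to 8.61. The order of libraries in Hmox1 (S-DTMS, Normal, MI, SNAP, DTMS) was the exact reverse of that in Vegfa as deposited. The order of Hmox1 was shared by 5.05% of all genes and that of Vegfa by 0.726%, but the reversal is not exact after the median of ratios or as TPM, where neighbours in Vegfa change places.

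**Figure D4:**
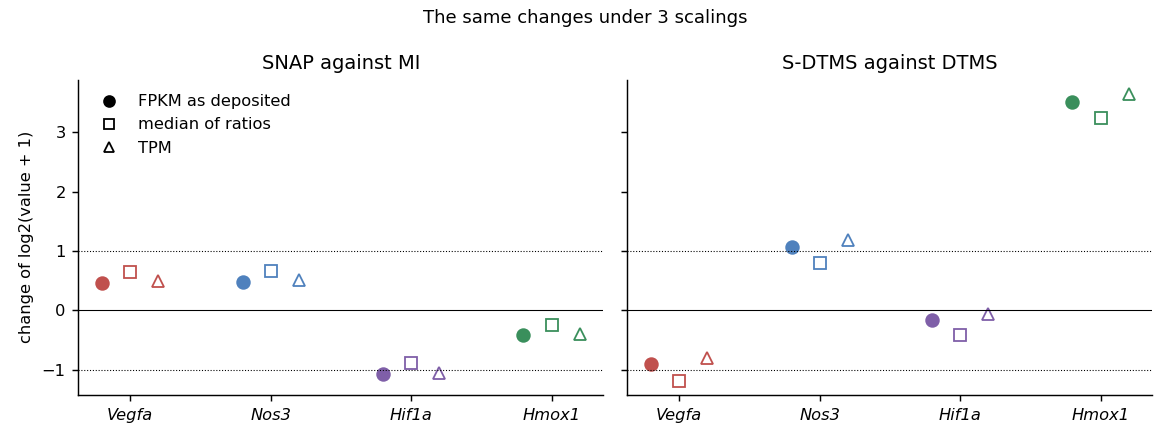
Change of log2(value + 1) for SNAP against MI (left) and S-DTMS against DTMS (right) on FPKM as deposited, after the median of ratios and as TPM, with dotted lines at the limit of 1. Every gene keeps its sign in both comparisons, while Hif1a (-1.06 to -0.89) on the left and Vegfa (-1.18 to -0.79) and Nos3 (0.79 to 1.19) on the right cross the limit with the scale.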

How the data were processed

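Left ventricular RNA of 5 groups, 1 library each, was analysed. The authors sequenced it on an Illumina NovaSeq instrument and deposited gene expression as FPKM. The submitters' processing notes name HTSeq and the mouse build mm9, although the identifiers are rat Ensembl genes. The aligner and annotation are not given in the sources used here, and no column belonged to another sample. Groups were taken from the sample labels.

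Library totals were those at which the steps in the low FPKM values gave whole gene lengths, as held for 97.7% of 4078 genes tried. Each gene's fragments were then taken at the shortest length that made all its values whole, within 0.02 and a small rounding allowance. A gene whose fragments and length share a divisor would be given too few fragments. The recovery steps were run on data simulated from these totals and lengths, which cannot show that the totals and lengths themselves are right. Intervals are exact (Poisson for a level, Clopper-Pearson for a ratio), except for the difference with the suture minus that without it. That interval is a normal approximation from the fragments of the infarcted libraries. Changes used log2(FPKM + 1), so that changes of low genes are understated. Scaling by the median of ratios took as a library's factor the median, over genes, of its value relative to the geometric mean of the 5 libraries, and TPM brings libraries to the same sum.

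Although the members were chosen by name and not by their values, earlier results of these data were known when members, lists and tests were set. Named were the 4 members and the closest patterns by Pearson's r, at most 2 of them, since the reference used here pairs no Ensembl identifier with a symbol. For the same reason the lists of pathway genes and cell type markers were not analysed here, and the names of the members are those given with their identifiers. Scripts ran under Python 3.11.15 with pandas 2.3.3, SciPy 1.17.1, NumPy 2.4.6 and, for plots, Matplotlib 3.10.9.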

Additional observations from a re-analysis of the deposited data

Results flagged for a closer look

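In 5 cases the same contrast had opposite signs in hearts without and with the other agent, and these differences were not tested, since each group has 1 library. For SNAP, the log2 change of Vegfa was 0.46 without the suture and -0.90 with it, and that of Hmox1 was -0.42 and 3.51. For the suture, Vegfa changed by 0.52 without SNAP and by -0.84 with it, Hmox1 by -1.02 and 2.91, and Hif1a by -0.64 and 0.27. The value of 0.27 for Hif1a became -0.07 after scaling by the median of ratios, so that the opposite sign is lost there. S-DTMS is the library with both agents in each case, and its own part in these differences cannot be told apart from that of the treatment. Lower without the suture and higher with it, as in Hmox1, was also the direction of 43.9% of all genes. The reverse, as in Vegfa, was the direction of 9.40%, so opposite signs for SNAP were common over all genes. For the suture, the share of opposite signs over all genes was not computed.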

How the results depend on the processing

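Filters on low values cannot alter the change of a member. Of 96 changes between 2 libraries under the 4 other alternatives (the pseudocount, the median of ratios, TPM and the shift to the median change), 4 turned sign, all of them in Hif1a, and 12 crossed the limit. Subtracting the median change of a comparison and leaving out the S-DTMS library were added after seeing the data. After the median of ratios, the members called fell from 1 to 0 in MI against Normal, SNAP against MI and DTMS against MI. They rose from 1 to 2 in S-DTMS against SNAP. Over all genes, 851, 832, 628 and 1532 of 13708 were called on that scale, in this order. In S-DTMS against DTMS 2 members were called on both scales, but Nos3 dropped out (0.79) and Vegfa entered (-1.18). Relative to the median change, the members called were 2 in S-DTMS against SNAP, 0 in SNAP against MI and 0 in DTMS against MI. The genes called were 1508, 786 and 612 of 13769. As TPM 0 members were called in DTMS against MI, with 901 of 14892 genes. The mean SNAP difference of Vegfa was -0.26 after the median of ratios, -0.15 as TPM and -0.27 relative to the median change, and that of Nos3 was 0.85 as TPM. With the S-DTMS library left out, it was 0.46 for Vegfa, 0.48 for Nos3, -1.06 for Hif1a and -0.42 for Hmox1, which turned sign.

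Over all genes, a pseudocount of 0.1 raised the genes called to 1622 in MI against Normal, 1749 in SNAP against MI, 1306 in DTMS against MI, 3035 in S-DTMS against MI, 3021 in S-DTMS against DTMS and 2981 in S-DTMS against SNAP, from 958, 871, 640, 2000, 1944 and 1834. Asking for 5 FPKM or more, the first 3 fell to 632, 571 and 354, with fewer genes entering. The genes at which both libraries with SNAP lay apart numbered 2642 of 13769 (19.2%), and 1754 with an FPKM of at least 5, where fewer genes entered. Without S-DTMS, SNAP alone lay apart at 7462 of 13769 genes (54.2%). That is a looser condition, so the 2 counts cannot be compared. Leaving out the filter moved no count by over 1.5 times. The median of ratios moved the share of higher genes among those called from 31.8% to 41.95% in MI against Normal, from 36.6% to 50.0% in SNAP against MI, from 60.6% to 46.7% in S-DTMS against MI, from 67.3% to 44.6% in S-DTMS against DTMS and from 74.9% to 45.0% in S-DTMS against SNAP. As TPM the last 3 shares moved the other way, to 68.8%, 73.8% and 81.2%. Depth limited none of the 4 members, whose lowest count was 473 fragments. No paired analysis was possible because no group has more than 1 library.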
